A study of Mus musculus with 6 samples.

Results

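The genes described are Parp14, Dtx3l, Parp9, Parp12 and Parp11, which are linked to the interferon response, and Parp1 and Parp2, relatives that act in DNA repair. They are 7 of 18193 genes measured in mouse skin. Every probe set whose single gene symbol was one of these names was taken, which gave 13 probe sets, 8 of the interferon-linked genes and 5 of Parp1 and Parp2, and no filter on dim signals removed any of them. The genes were selected on the difference in log2 value between alopecic and unaffected skin, which was already known. Their differences are therefore descriptions with errors and carry no test. Where a call of the fit over all genes or probe sets is given for them, it describes that fit only.

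The arrays came from skin of the inbred strain C3H/HeJ. The alopecic group held 3 mice with spontaneous alopecia areata, an autoimmune hair loss, sampled in affected skin, and the unaffected group held 3 mice without it. Each array measured total RNA from the skin of a different mouse. The labels give no age, sex, body site, treatment or batch. Values are log2 RMA values, in which 1 unit is a doubling, arrays have been scaled to each other, and the value of a gene is that of its brightest probe set.

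PARP enzymes take ADP-ribose from NAD and attach it to proteins or nucleic acids, as single units or as chains. Parp1 and Parp2 are chain-forming enzymes of the nucleus that are switched on by DNA breaks. Parp14, Parp9, Parp12 and Parp11 add single units or, in the case of Parp9, show little activity alone, and cells treated with interferon raise several of them. Dtx3l is a ubiquitin ligase of the Deltex family that forms a complex with Parp9, and this complex acts in interferon signalling and at DNA damage in cultured human cells. In alopecia areata, lymphocytes that make interferon gamma gather around hair follicles.

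Promoter sequences were available for Dtx3l, Parp12, Parp11, Parp1 and Parp2 from RefSeq (GRCm38.p6), and were searched for a pair of interferon motifs. The interferon-stimulated response element was written as GAAANNGAAA, or TTTCNNTTTC on the other strand, and the gamma-activated site as TTCNNNGAA, which reads the same on both strands. The 250 bases before each annotated start were searched. Matches are in capitals, and the sequences are shown to set the strongly differing Dtx3l and Parp12 and the weakly differing Parp11 beside Parp1. The windows are Dtx3l at chr16:35939028-35939277 (minus strand), Parp12 at chr6:39118350-39118599 (minus strand), the first of 2 starts of Parp11 at chr6:127446590-127446839 (plus strand) and Parp1 at chr1:180568641-180568890 (plus strand).
Dtx3l: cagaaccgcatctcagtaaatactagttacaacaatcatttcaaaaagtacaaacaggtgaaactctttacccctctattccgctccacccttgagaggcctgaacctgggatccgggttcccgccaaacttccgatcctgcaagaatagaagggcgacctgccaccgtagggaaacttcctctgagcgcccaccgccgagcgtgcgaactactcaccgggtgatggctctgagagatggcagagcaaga
Parp12: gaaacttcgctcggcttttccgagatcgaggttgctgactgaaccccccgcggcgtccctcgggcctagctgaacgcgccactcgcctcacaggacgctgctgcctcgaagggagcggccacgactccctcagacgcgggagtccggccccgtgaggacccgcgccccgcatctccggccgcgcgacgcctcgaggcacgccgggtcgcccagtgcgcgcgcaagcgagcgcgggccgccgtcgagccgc
Parp11: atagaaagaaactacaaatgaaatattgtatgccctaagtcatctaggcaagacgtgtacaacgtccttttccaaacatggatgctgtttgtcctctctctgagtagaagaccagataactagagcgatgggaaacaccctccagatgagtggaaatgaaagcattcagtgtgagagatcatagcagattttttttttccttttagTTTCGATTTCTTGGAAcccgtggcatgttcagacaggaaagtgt
Parp1: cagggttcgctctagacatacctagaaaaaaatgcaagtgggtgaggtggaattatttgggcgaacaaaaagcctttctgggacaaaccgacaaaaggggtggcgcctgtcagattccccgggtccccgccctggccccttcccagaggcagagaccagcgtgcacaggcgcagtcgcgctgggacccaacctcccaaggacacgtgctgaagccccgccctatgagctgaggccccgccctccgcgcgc

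The first Parp11 window held both motifs. The response element match TTTCGATTTC began 44 bases before the start, and the gamma-activated site match TTCTTGGAA began 37 bases before it, so that the matches shared 3 bases. The windows of Dtx3l, Parp12, Parp1 and Parp2 and the second window of Parp11 held neither string of letters. Among 32851 promoter windows of the same length, 2.98% held the response element and 7.02% the gamma-activated site. These matches describe the letters of the windows only. G and C made up 73.6% of the Parp12 window, 61.6% of the Parp1 window, 52.8% of the Dtx3l window and 40.4% of the first Parp11 window.

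For Parp14, Dtx3l, Parp9, Parp12 and Parp11 the lowest alopecic value lay above the highest unaffected value, whereas the values of Parp1 and Parp2 overlapped between the groups. Of the 7 genes 5 were thus separated upwards and 0 downwards, beside 6.93% and 6.12% of all genes, or 13.1% without overlap in either direction. Parp14, Dtx3l and Parp9 passed the adjusted threshold of the fit over all genes (limma, Benjamini-Hochberg adjusted p under 0.05), as did 0.264% of all genes upwards, and 0 of the 7 passed downwards, beside 0.011%. Parp12 and Parp11 did not pass; at an unadjusted limma p under 0.05 stood 5 of the 7, beside 7.15% of all genes in either direction. The 5 genes were chosen for this direction, and these counts therefore support nothing further.

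**Figure D1:**
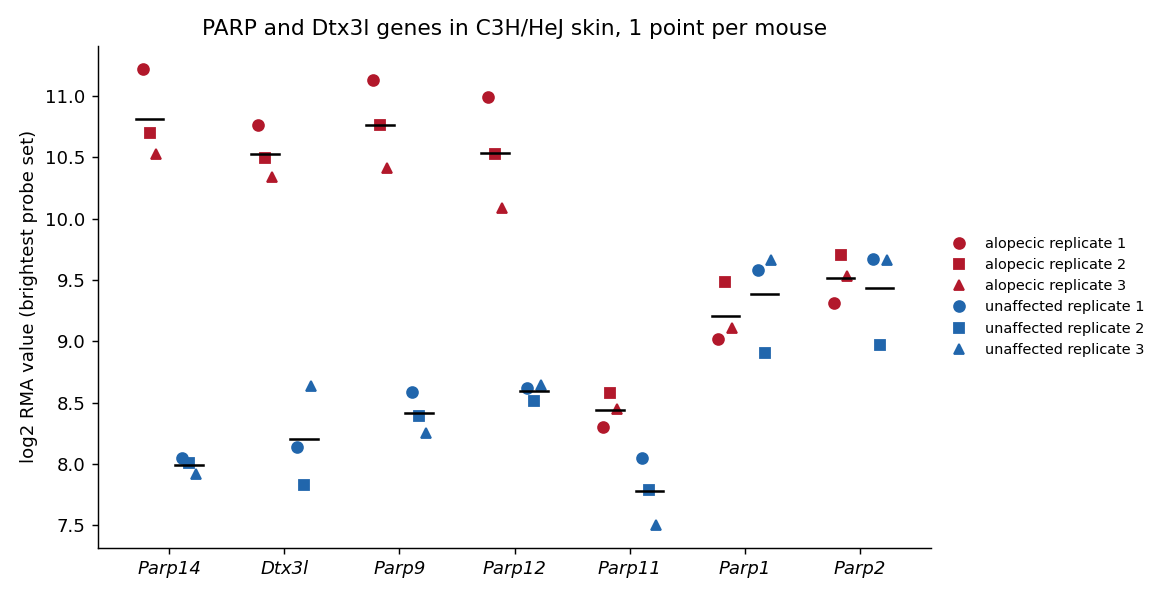
Log2 RMA values (y axis) of each gene, by its brightest probe set, in alopecic (red, left) and unaffected skin (blue, right), with 1 point per mouse and a black line at the group mean. For Parp14, Dtx3l, Parp9 and Parp12 every alopecic point lies at 10.08 or above and every unaffected point at 8.64 or below.

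Parp14, a large enzyme with macrodomains that bind ADP-ribose and a coactivator of STAT6, had the largest difference of the set. Its log2 values were 11.22, 10.70 and 10.53 in alopecic skin, against 8.05, 8.01 and 7.92 in unaffected skin. The unaffected arrays were close together, with an SD of 0.07, and the alopecic arrays were spread over 0.70, with replicate 1 highest. The log2 difference was 2.82 (SE 0.20, n = 3 each), a 7.08-fold difference with a 95% interval of 5.04-fold to 9.95-fold, and it was the 48th highest of all genes.

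The second Parp14 probe set gave a smaller and less certain difference. Its values were 7.47, 6.38 and 6.39 in alopecic skin, against 5.55, 5.83 and 6.37 in unaffected skin. The groups almost touched, since alopecic replicate 2 and unaffected replicate 3 differed in the second decimal only. Between the groups it differed by 0.83 on the log2 scale (SE 0.37), with a 95% interval of -0.07 to 1.74. With the mean of both probe sets in place of the brighter, the Parp14 difference was 1.83, and the gene did not pass the threshold. The mean of the dimmer probe set was 6.33, and the array medians lay between 6.11 and 6.17.

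Parp9 and Dtx3l, the members of one protein complex, differed by nearly the same amount. Parp9, which binds ADP-ribose through its macrodomains, had values of 11.13, 10.76 and 10.41 in alopecic skin, against 8.59, 8.39 and 8.26 in unaffected skin. Its log2 difference was 2.35 (SE 0.21), or 5.11-fold, with a 95% interval of 3.57-fold to 7.32-fold. The lowest alopecic array stood 1.82 above the highest unaffected array.

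Dtx3l had values of 10.76, 10.49 and 10.34 in alopecic skin, against 8.14, 7.83 and 8.63 in unaffected skin. Its log2 difference was 2.33 (SE 0.24), or 5.02-fold, with a 95% interval of 3.34-fold to 7.55-fold. In contrast to Parp14, Parp9 and Parp12, Dtx3l was spread more widely in unaffected skin, over 0.81, than in alopecic skin, over 0.42, and unaffected replicate 3 was the highest of its group. The second Dtx3l probe set had values of 10.32, 10.10 and 9.66 in alopecic skin, against 8.14, 7.57 and 8.09 in unaffected skin, a log2 difference of 2.09 (SE 0.24). Both probe sets of Dtx3l thus differed in the same direction and by a similar amount.

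Parp12, which carries zinc fingers of the kind that bind RNA and is known from cell culture as an inhibitor of virus replication, had values of 10.99, 10.52 and 10.08 in alopecic skin, against 8.62, 8.52 and 8.64 in unaffected skin. Unaffected arrays again lay close together, within 0.13, and alopecic arrays were spread over 0.91, the widest range of the brightest probe sets. Parp12 thus differed by 1.94 on the log2 scale (SE 0.24), or 3.84-fold, with a 95% interval of 2.55-fold to 5.76-fold. Parp12 missed the threshold in the fit over all genes and passed with dim genes left out or with arrays weighted. As Parp12 was chosen on this difference, these calls describe the fits and are no test of the gene.

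Parp11, an enzyme found at the nuclear envelope, had the smallest difference among the interferon-linked genes. Its values were 8.30, 8.58 and 8.45 in alopecic skin, against 8.05, 7.79 and 7.50 in unaffected skin. The groups were separated by 0.25, which is less than the range of 0.55 among unaffected arrays. On the log2 scale Parp11 differed by 0.66 (SE 0.17), or 1.58-fold, with a 95% interval of 1.18-fold to 2.12-fold. Its dimmer probe set, with a mean of 5.83 below the array medians, had values of 5.90, 6.38 and 5.88 in alopecic skin, against 5.77, 5.23 and 5.82 in unaffected skin, and a log2 difference of 0.45 (SE 0.22).

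**Figure D2:**
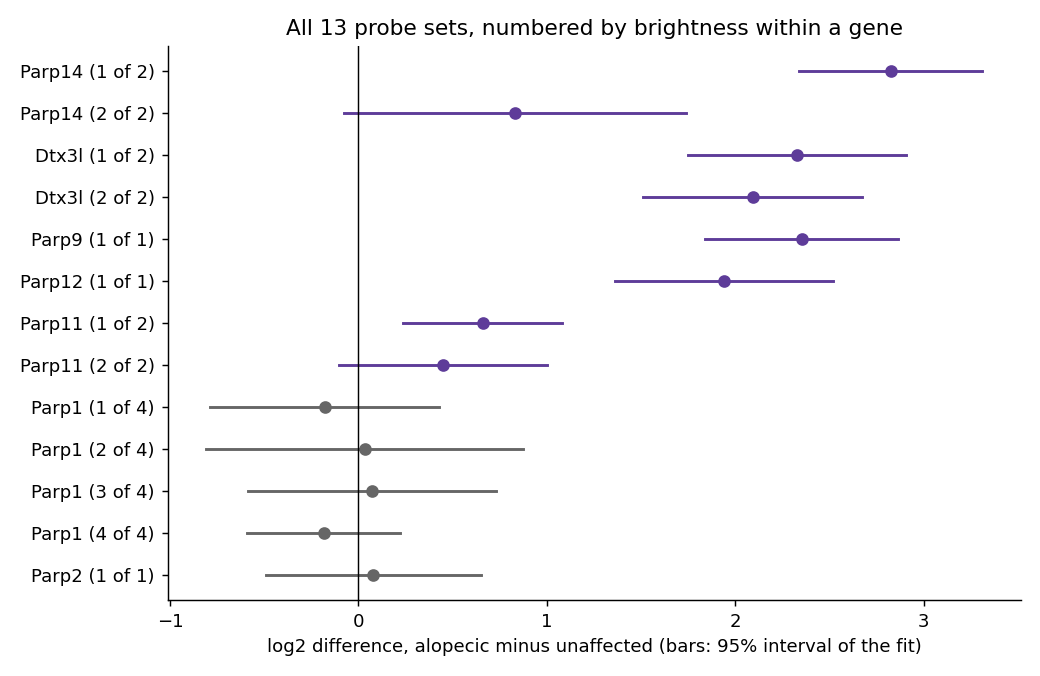
Log2 difference, alopecic minus unaffected (x axis), of all 13 probe sets with the 95% interval of the fit, interferon-linked genes in purple and Parp1 and Parp2 in grey. The probe sets of each gene run from the brightest down; the dimmer Parp14 probe set, at 0.83, lies far below the brighter, at 2.82, and every interval of Parp1 and Parp2 spans 0.

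Parp1, the most active of the enzymes that answer DNA breaks, had values of 9.02, 9.48 and 9.11 in alopecic skin, against 9.58, 8.91 and 9.66 in unaffected skin. Parp1 differed by -0.18 on the log2 scale (SE 0.25), with a 95% interval of -0.79 to 0.43, so that the data allow between 0.577-fold and 1.35-fold. The other Parp1 probe sets had log2 differences of 0.03 (SE 0.34), 0.07 (SE 0.27) and, for a dim one with a mean of 4.80, -0.18 (SE 0.17). The 4 probe sets of the gene therefore had no common sign.

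Parp2, its closest relative in function, had values of 9.31, 9.70 and 9.53 in alopecic skin, against 9.67, 8.97 and 9.67 in unaffected skin. The log2 difference was 0.08 (SE 0.23), with a 95% interval of -0.50 to 0.66. Its sign turned in 2 fits, to -0.01 without alopecic replicate 2 and to -0.15 without unaffected replicate 2.

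Of the 13 probe sets, 8 had every alopecic array above every unaffected array, namely all 8 of the interferon-linked genes, beside 5.79% of 34945 probe sets on the arrays, or 12% without overlap in either direction. In the fit over all probe sets 3 of the 13 passed the threshold, the brightest of Parp14 and Dtx3l and that of Parp9, beside 0.169% of all probe sets in either direction. As with the genes, this separation follows from how the genes were named.

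The calls of the members, which were chosen on this same difference and are no test of it, depended on single arrays. In the 6 fits with 1 array omitted, the log2 difference of Parp14 lay between 2.62 and 2.97, that of Dtx3l between 2.14 and 2.55, that of Parp9 between 2.17 and 2.53, that of Parp12 between 1.71 and 2.16 and that of Parp11 between 0.52 and 0.79. Parp14 passed the threshold without alopecic replicate 1, alopecic replicate 3 or unaffected replicate 3, and Dtx3l passed without unaffected replicate 3. No member passed without alopecic replicate 2, unaffected replicate 1 or unaffected replicate 2, in fits where 14, 7 and 4 of 18193 genes passed. In the same 3 fits 5 of the 7 members had an unadjusted limma p under 0.05, as had 1016, 1326 and 1208 of all genes. Parp9 and Parp12 passed in none of these 6 fits.

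The spread within the alopecic group followed one pattern across the strongly differing genes. Alopecic replicate 1 was the highest and alopecic replicate 3 the lowest array of its group for Parp14, Dtx3l, Parp9 and Parp12, by their brightest probe sets. Among the alopecic arrays, the mean of the T cell markers was also highest in replicate 1. So were the means of the macrophage, dendritic cell, B cell, keratinocyte and fibroblast markers. Those of the endothelial markers and of the hair shaft and sheath markers were not. The mean log2 value of 9 measured T cell markers was 7.64, 6.73 and 6.64 in alopecic replicates 1, 2 and 3, against 5.88, 5.89 and 6.06 in unaffected skin. Of these 9 markers 6 had every alopecic array above every unaffected array, beside 6.93% of all genes, and 1, Cd4, had every alopecic array below, beside 6.12%. The 6 were Cd8b1, Cd3d, Cd8a, Cd2, Cd3g and Cd3e, with log2 differences of 2.13, 1.80, 1.76, 1.73, 1.64 and 0.52. Cd247 differed by 0.18 (SE 0.25) with overlap. Cd4, the coreceptor of helper T cells, had values of 6.12, 6.05 and 6.13 in alopecic skin, against 6.21, 6.43 and 6.15 in unaffected skin, a log2 difference of -0.17 (SE 0.12, limma adjusted p = 0.859). Tcra, a T cell receptor gene, differed by -0.06 (SE 0.12, limma adjusted p = 0.940) with overlap. None of the 9 passed the threshold (limma, lowest adjusted p = 0.266, with 6 at an unadjusted p under 0.05, beside 7.15% of all genes). Cd247, Cd2, Cd8b1 and Tcra lay below the array medians on average, and no array value is a true 0. In bulk skin, more cells of a type and more RNA per cell cannot be told apart, and the part of T cells in the differences of the PARP genes was not tested.

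Markers of other cell types were averaged in the same way. The mean over 9 macrophage markers was 9.83, 8.19 and 9.17 in alopecic skin, against 8.71, 9.26 and 7.91 in unaffected skin. Of the 9, 1, the dim Fcgr1, had groups that did not overlap, beside 13.1% of all genes. Over 6 dendritic cell markers the mean was 7.17, 6.32 and 6.31 in alopecic skin, against 6.18, 6.30 and 6.22 in unaffected skin. Of the 6, 2, Itgax and the dim Ccr7, had every alopecic array above every unaffected array, beside 6.93% of all genes. Cd207 and Flt3 went the other way, with log2 differences of -0.465 and -0.182. The 4 measured B cell markers lay below the array medians. The 7 keratinocyte markers, which define the epidermis, had means of 13.30, 12.36 and 12.39 in alopecic skin, against 13.02, 12.76 and 12.14 in unaffected skin. The tissue thus carried the markers of its label. Of the 7, 2, Krt5 and Krt14, had every alopecic array above every unaffected array, beside 6.93% of all genes. Their log2 differences were 0.397 and 0.485. Krt10, Lor and Ivl went the other way, at -0.296, -0.448 and -0.612, and Krt1 and Flg differed by 0.011 and 0.785, all with overlap. None of the macrophage, dendritic cell, B cell or keratinocyte markers passed the threshold (limma). Of them 0, 1, 0 and 2 had an unadjusted limma p under 0.05, beside 7.15% of all genes. The 6 fibroblast and 5 endothelial markers had median log2 differences of -0.02 and -0.31 and none past the threshold. An unadjusted limma p under 0.05 was found for 0 and 1 of them, beside the same 7.15%. The means over the fibroblast markers were 12.29, 11.79 and 11.19 in alopecic skin, against 12.49, 11.79 and 10.96 in unaffected skin.

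Parp1 and Parp2 moved together from array to array. Alopecic replicate 2 was the highest and alopecic replicate 1 the lowest of the alopecic arrays for both, and unaffected replicate 2 was the lowest of the unaffected arrays for both. The 3 brighter Parp1 probe sets shared that order. A list of 9 cell division genes had means of 9.65, 11.05 and 10.79 in alopecic skin, against 10.69, 9.44 and 7.70 in unaffected skin. Its order matched Parp1 and Parp2 in the highest and lowest alopecic array, but in unaffected replicate 3 the cell division genes were lowest and Parp1 was highest. Unaffected replicate 3 also stood apart in hair genes: the mean of 8 hair shaft and sheath markers was 12.33 to 12.80 in alopecic skin, against 13.52, 13.93 and 5.70 in unaffected replicates 1, 2 and 3. The log2 difference of Parp1 without that array was -0.04, and the part of hair growth in these values was not tested.

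**Figure D3:**
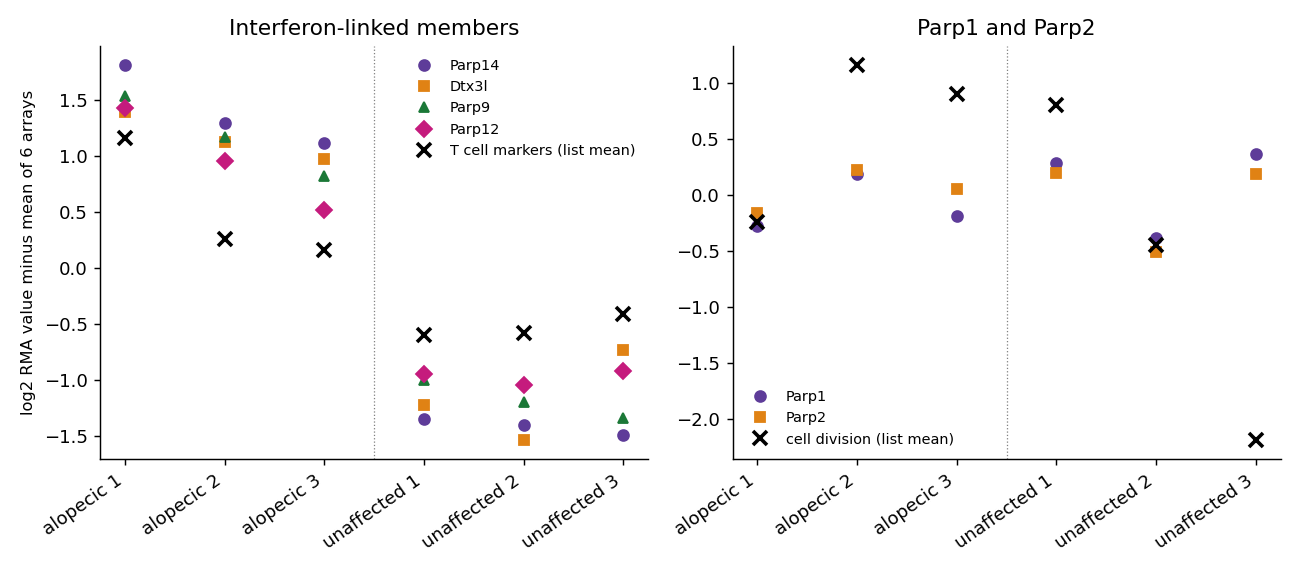
Log2 RMA values by array minus the mean of the 6 arrays (y axis), for Parp14, Dtx3l, Parp9 and Parp12 with the mean of 9 T cell markers (left panel) and for Parp1 and Parp2 with the mean of 9 cell division genes (right panel). Alopecic replicate 1 is highest throughout the left panel, and unaffected replicate 3 parts Parp1 and Parp2 from the cell division genes in the right panel.

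Likeness between genes was measured as the root mean square difference of their mean-centred log2 values over the 6 arrays, which is a description without a test. The difference between the groups is part of these values, so genes with a similar difference lie close together. Nearness is therefore not independent of the difference on which the members were chosen. Among the members, Parp1 and Parp2 were closest, at 0.15, followed by Parp9 with Parp12 at 0.24 and Parp14 with Parp9 at 0.25. Dtx3l and Parp9 lay 0.31 apart. Parp11 was closer to Parp2, at 0.41, than to Parp12, at 0.73, or Parp14, at 1.12. Of all other genes, the nearest to Parp14 were Dhx58 at 0.13, an RNA sensor, then Slfn2 and Psmb9, a subunit of the immunoproteasome. Nearest to Parp9 were Psmb10 at 0.09, another immunoproteasome subunit, the transcription factor Irf7, and Usp18, which removes ISG15 from proteins. Dtx3l had as nearest genes Tnfaip2 at 0.13, the immunoproteasome subunit Psmb8, and Tap1, a transporter of peptides for MHC class I. Those of Parp12 were Rnf213 at 0.09, the granzyme B inhibitor Serpinb9, and Ly75, an endocytic receptor of dendritic cells. The nearest genes of Parp11 were Zc3hav1 at 0.07, Fubp1 and Pnpt1. Parp2 was nearest to Xrcc6 at 0.06, a subunit of the Ku complex of break repair, Ankrd26, and Nbn, a sensor of double-strand breaks, and Parp1 to Zfp74 at 0.07, Dmd and Atpaf1.

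The remaining PARP family was examined to place the members within it. Of 9 other measured family genes none passed the threshold in the gene fit (limma, 1 with an unadjusted p under 0.05, beside 7.15% of all genes). Their median log2 difference was 0.16, beside -0.01 over all genes. Zc3hav1, also called PARP13, an antiviral zinc finger protein without catalytic activity, had values of 10.98, 11.11 and 11.12 in alopecic skin, against 10.63, 10.29 and 10.10 in unaffected skin. Its groups did not overlap, beside 13.1% of all genes, and the log2 difference was 0.73 (SE 0.16, limma adjusted p = 0.329). Parp8 differed by 0.68 (SE 0.30, limma adjusted p = 0.738) and the tankyrase Tnks2, which builds ADP-ribose chains, by 0.14 (SE 0.16, limma adjusted p = 0.896). Tiparp, a target of the aryl hydrocarbon receptor, differed by -0.16 (SE 0.24, limma adjusted p = 0.915). Parp10 was not analysed here, since the probe set annotated to it also carries the symbol Plec.

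A second probe set of Zc3hav1, singled out after its values were seen, behaved more uniformly within each group. It had values of 8.12, 8.18 and 8.12 in alopecic skin, against 6.96, 7.10 and 7.04 in unaffected skin. The log2 difference was 1.11 (SE 0.10), or 2.15-fold, and passed in the fit over all probe sets (limma adjusted p = 0.0275). It was the 1 of 24 probe sets of the other PARP family genes to pass, beside 0.166% of all probe sets that rose. The call was lost with any single array left out, with adjusted p from 0.0606 to 0.169 in limma, while the log2 difference stayed between 1.07 and 1.14. With an intensity trend the call was lost as well, at a limma adjusted p of 0.0926. The remaining probe set of the gene, with a mean of 6.14 near the array medians, differed by 0.39 (SE 0.16, limma adjusted p = 0.832), also with no overlap between the groups. Of the 24 probe sets 3, all of Zc3hav1, had every alopecic array above every unaffected array, beside 5.79% of all probe sets.

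The other Deltex genes did not pass. Of 4 measured, Dtx4 had the largest log2 difference, 0.49 (SE 0.19, limma adjusted p = 0.686), followed by Dtx3 at 0.35 (SE 0.22), Dtx2 at 0.20 (SE 0.17) and Dtx1 at -0.17 (SE 0.13). Only Dtx4 among the 4 had an unadjusted limma p under 0.05 and groups that did not overlap, beside 7.15% and 13.1% of all genes. These ubiquitin ligases share the Deltex fold with Dtx3l and are known from Notch signalling.

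Genes that remove ADP-ribose or assist its transfer showed no call in either direction. Of 10 measured genes none passed or had an unadjusted limma p under 0.05, and the median log2 difference was 0.02. Hpf1, which directs Parp1 and Parp2 to serine residues, differed by 0.39 (SE 0.31, limma adjusted p = 0.859). Macrod1, a mitochondrial hydrolase of single ADP-ribose units, differed by -0.59 (SE 0.94, limma adjusted p = 0.919), with values of 8.86 to 9.94 in alopecic skin, against 9.64, 8.37 and 12.04 in unaffected skin. Parg, which degrades the chains, differed by 0.18 (SE 0.20, limma adjusted p = 0.895). Adprh and Enpp1 were not analysed here.

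The supply of NAD, which these enzymes consume, was likewise without a call. Of 11 measured genes none passed or had an unadjusted limma p under 0.05, and the median log2 difference was -0.02. Of the 11, 1 had groups that did not overlap, beside 13.1% of all genes. It was Qprt, with a mean of 5.35 below the array medians. Nampt, the rate-limiting enzyme of NAD salvage, differed by 0.40 (SE 0.37, limma adjusted p = 0.872), and Sirt1, an NAD-dependent deacetylase, by -0.02 (SE 0.22, limma adjusted p = 0.988).

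Factors that carry the interferon signal were split. Of 11 measured genes 2 rose, Irf1 and Ifng, beside 0.264% of all genes. The median log2 difference was 0.33, beside -0.01 over all genes. An unadjusted limma p under 0.05 was found for 5 of the 11, beside 7.15% of all genes. All alopecic arrays lay above all unaffected arrays for 5 of the 11, beside 6.93% of all genes. Irf1, a transcription factor induced by interferon gamma, had values of 11.82, 11.61 and 11.60 in alopecic skin, against 8.50, 8.84 and 8.90 in unaffected skin, a log2 difference of 2.93 (SE 0.15, limma adjusted p = 0.00607). Irf1 lost its call without unaffected replicate 2 (limma adjusted p = 0.0679) and passed in the fits without any other single array. Alopecic replicate 1 was its highest array, as for Parp14, but the alopecic range was narrower, with an SD of 0.13 against 0.36 for Parp14.

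Ifng, which encodes interferon gamma and is dim in unaffected skin, had values of 7.51, 6.76 and 6.69 in alopecic skin, against 4.54, 4.86 and 4.86 in unaffected skin. Alopecic replicate 1 was again the highest array. The log2 difference was 2.24 (SE 0.25, limma adjusted p = 0.0494), and it passed without alopecic replicate 1 (limma adjusted p = 0.0475) but in none of the other fits with 1 array left out (limma adjusted p from 0.104 to 0.233). The call was also lost with quantile normalization repeated and with the replicate block, at limma adjusted p of 0.0553 and 0.375. Ifng has 1 probe set, so averaging probe sets left its difference at 2.24. Its limma adjusted p in that fit was 0.0502, just above the threshold. Stat2 and Irf9, partners in the factor that binds the response element, differed by 2.19 (SE 0.37, limma adjusted p = 0.146) and 1.78 (SE 0.25, limma adjusted p = 0.0959), both without overlap between the groups. The receptor genes Ifngr1 at -0.39 (SE 0.30), Ifngr2 at -0.07 (SE 0.23), Ifnar1 at 0.17 (SE 0.14) and Ifnar2 at 0.71 (SE 0.28) did not pass. Dimmer probe sets of Ifnar2 differed by 1.51 (SE 0.18) and 0.55 (SE 0.15). In the fit over all probe sets their limma adjusted p was 0.07 and 0.607. Every Ifnar2 probe set had all alopecic arrays above all unaffected arrays, beside 5.79% of all probe sets. The dimmer probe sets of Ifngr2 and Ifnar1 differed by 0.14 (SE 0.12) and 0.10 (SE 0.33), with overlap.

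**Figure D4:**
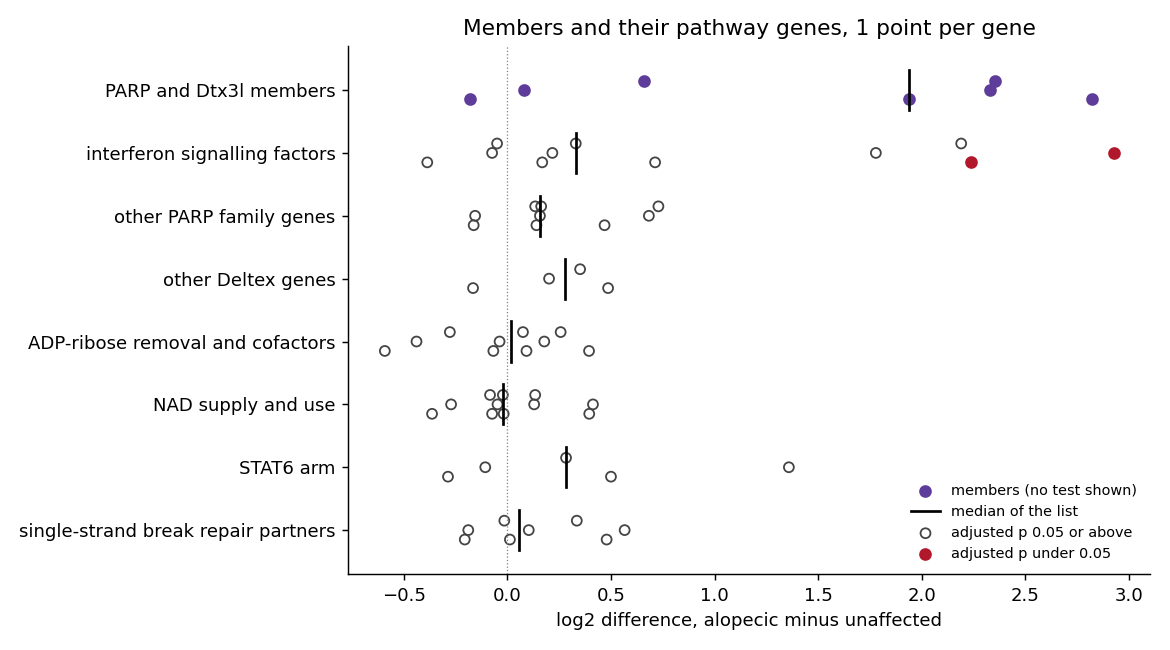
Log2 difference, alopecic minus unaffected (x axis), with 1 point per gene for the members (purple) and for 7 related gene lists (red where the limma adjusted p was under 0.05, open otherwise), and a black bar at each list's median. Irf1 and Ifng are the filled red points, and the lists of other PARP genes, ADP-ribose removal and NAD supply lie between -0.59 and 0.73.

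The partners of Parp14 in interleukin-4 signalling and of Parp1 in strand break repair were also counted. Of 5 genes around STAT6 none passed (limma, 1 with an unadjusted p under 0.05, beside 7.15% of all genes). Stat6 differed by 0.28 (SE 0.15, limma adjusted p = 0.814) and Gata3 by -0.29 (SE 0.18, limma adjusted p = 0.846). The receptor gene Il4ra had the largest value of the list, 1.36 (SE 0.43, limma adjusted p = 0.579), and the cytokine genes Il4 and Il13 were dim. Of 8 repair genes none passed or had an unadjusted limma p under 0.05, with a median of 0.06. The polymerase Polb differed by -0.19 (SE 0.10, limma adjusted p = 0.818) and the flap nuclease Fen1 by 0.57 (SE 0.39, limma adjusted p = 0.857).

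Parp14, Dtx3l and Parp9 are next to each other on chromosome 16 in RefSeq, and the annotated spans of Dtx3l and Parp9 overlap. The positions of the array probes were not used here. The genes on either side, chosen after the data were seen, did not share the difference of the 3 members. On one side Hspbap1 differed by -0.06 (SE 0.16, limma adjusted p = 0.949) and Slc49a4 by -1.05 (SE 0.19, limma adjusted p = 0.190). The values of Slc49a4 were lower in every alopecic array, and it did not pass. On the other side Kpna1 differed by -0.27 (SE 0.35, limma adjusted p = 0.907), Wdr5b by -0.14 (SE 0.13, limma adjusted p = 0.872) and Fam162a by 0.86 (SE 0.22, limma adjusted p = 0.419). Fam162a was higher in every alopecic array and did not pass.

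**Figure D5:**
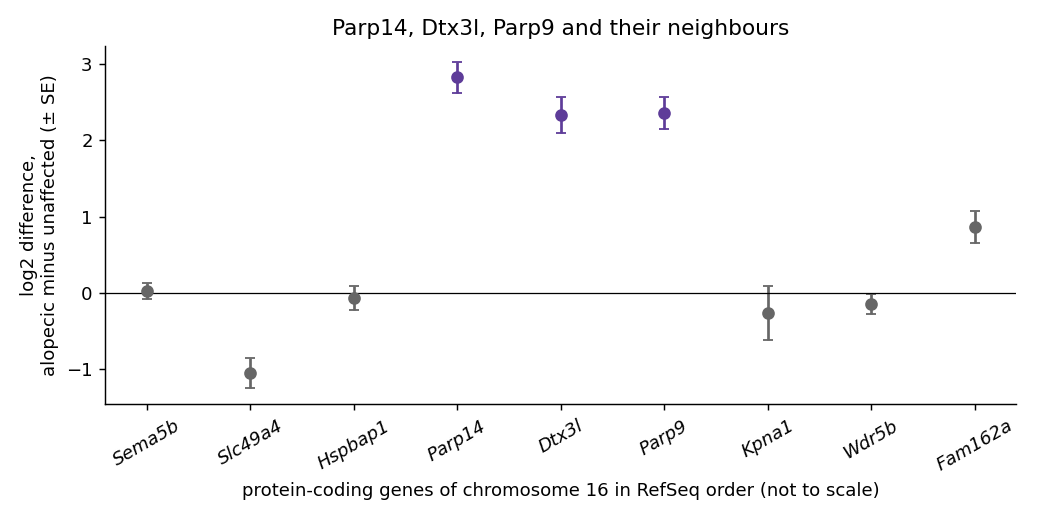
Log2 difference, alopecic minus unaffected, with its SE (y axis) for 9 protein-coding genes in their order along chromosome 16 (x axis, not to scale). Parp14, Dtx3l and Parp9, in purple, lie between 2.33 and 2.82, and the 6 neighbours, in grey, between -1.05 and 0.86.

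Taking 3 protein-coding neighbours on each side of every member gave 30 distinct genes outside the set, of which 28 were measured. Their median log2 difference was -0.09, 2 of the 28 had every alopecic array above the unaffected arrays, beside 6.93% of all genes, and 3 had every alopecic array below them, beside 6.12%. The count of 2 is near the share over all genes. Rab19, which encodes a small GTPase and lies on chromosome 6 in the third place from Parp12, was the 1 of 28 to pass, beside 0.275% of all genes called in either direction. It had values of 7.31, 7.51 and 7.22 in alopecic skin, against 6.25, 6.21 and 6.17 in unaffected skin, a log2 difference of 1.14 (SE 0.12, limma adjusted p = 0.0363). The call was lost with any single array left out, with adjusted p from 0.0873 to 0.208 in limma, and with an intensity trend, at 0.0616. The genes between Rab19 and Parp12, Kdm7a and Slc37a3, differed by -0.40 (SE 0.14) and 0.22 (SE 0.59), with limma adjusted p of 0.619 and 0.953.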

How the data were processed

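The deposited values are log2 intensities made with RMA, per the submitters' processing notes. RMA subtracts background, brings the arrays to a common distribution and combines probes into one value per probe set. No source used here gives its version. Per the labels' protocols, RNA was labelled from the 3' end of transcripts. The table held 45101 probe sets with no missing value, and values ran from 3.07 to 14.92. Gene symbols came from the platform annotation, updated through gene IDs of RefSeq GRCm38.p6 (34741 of 34945 probe sets with 1 symbol; 932 with several were left out). Positions are given for promoter sequences only, from RefSeq, because no source used here names the build behind the arrays.

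Alopecic minus unaffected skin was fitted in limma 3.58.1 (R 4.3.3; moderated two-sided test by eBayes) over 18193 genes, each by its brightest probe set, and over all 34945 probe sets, with Benjamini-Hochberg adjustment over the whole table and a threshold of 0.05. Errors are standard errors of the fit or SDs over 3 arrays, and 95% intervals come from the fit. An array has no read depth; 3 arrays per group limit the precision. RMA values are relative. All mice were separate animals, and replicate numbers were not used as pairs.

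The members and gene lists were chosen with earlier results of these data known. Named genes were all members and the 3 nearest genes of each member. List genes past the threshold, or else the 2 brightest of a list, were also named, except for cell division and cell type markers. Other names, including those of cell type markers, were chosen after their values were seen. Lists are described by counts and medians beside those of all genes. Alternatives left out each array, blocked on replicate number, averaged probe sets, left out dim features, used an intensity trend with robust estimation, weighted arrays or repeated quantile normalization.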

Additional observations from a re-analysis of the deposited data

How the results depend on the processing

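Of the 7 members, 3 passed the threshold in the gene fit; with 1 array left out the number ran from 0 to 2, and with a replicate block it was 0, with 5 at an unadjusted limma p under 0.05. The number of genes past the threshold, 50, ran from 4 to 39 with 1 array left out, and was 0 with the replicate block (873 at an unadjusted limma p under 0.05) and 139 with array weights. For probe sets, 59 passed; the number ran from 0 to 49 with 1 array left out (the 0 without unaffected replicate 2, with 2065 at an unadjusted limma p under 0.05), and was 0 with the replicate block (1550 at an unadjusted limma p under 0.05) and 169 with array weights. Parp14, Dtx3l, Parp9, Parp12, Parp11 and Parp1 kept the sign of their difference in all 12 alternative gene fits. The difference of Parp2, 0.08, turned to -0.012 without alopecic replicate 2 and to -0.153 without unaffected replicate 2, so its leave-out range was -0.153 to 0.199. Same-numbered mice share only a number: across genes, their deviations from the group means correlated at -0.132, -0.197 and -0.33, and no mouse correlated best with its own number. Array signal sets no read depth, and 2 of the 13 probe sets, the fourth of Parp1 and the second of Parp11, had means below the array medians.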
